A study of Mus musculus with 21 samples.

Results

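The Hox cluster genes are the rows of the mouse count tables whose symbol is Hox followed by a, b, c or d and a paralog number. There were 39 such genes of 40838 rows in each of 2 tables, and each of the 39 had at least 1 read in each table. The libraries are polyA RNA of mouse embryonic stem cells (ESC) kept for 48 h in medium with 10% dialysed serum and 0.2 mM pyruvate. The first table held 15 libraries of 3 lines in 2 media: SL2i with SLC16A1 clone 1, SLC16A1 clone 2 and chr8A (2 libraries each), and SL with the same 3 lines (3 libraries each). The second held SL LbNOX and SL vector (3 libraries each). SL2i stands for LIF with inhibitors of GSK3B and MEK, and SL for LIF without them, both on serum. SLC16A1 encodes MCT1, a lactate and pyruvate carrier of the plasma membrane, and LbNOX is a bacterial NADH oxidase used to lower the NADH to NAD+ ratio. The labels do not say how the SLC16A1 clones or chr8A were made. The chr8A cells are taken from that name as the line the clones are set against. Each SLC16A1 line is 1 clone, and nothing says that libraries of a group came from separate cultures, so the p-values rest on library-to-library spread within a line, part or all of which may be technical.

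Hox genes encode homeodomain transcription factors that set position along the head-to-tail axis. They lie in 4 clusters, and in the embryo genes with low paralog numbers are switched on first and nearest the head, while those with high numbers come on last and nearest the tail. In ESC the clusters are classic targets of Polycomb repression and carry both repressive and activating histone marks. Retinoic acid, Wnt signals and the caudal factors of the Cdx family are known inducers, and a GSK3 inhibitor mimics Wnt signalling.

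Promoter sequence of RefSeq (GRCm38.p6, 250 bases before to 50 after the start, in the direction of transcription) was at hand for 22 of the 39 genes. A pair of genes is shown because one was higher in SL2i in all 3 lines, Hoxc4, and the other, Hoxd13, was not. The capitals mark CG dinucleotides, the sites of DNA methylation. The Hoxc4 window is chr15:103034145-103034444, plus strand, and the Hoxd13 window is chr2:74667975-74668274, plus strand.
Hoxc4: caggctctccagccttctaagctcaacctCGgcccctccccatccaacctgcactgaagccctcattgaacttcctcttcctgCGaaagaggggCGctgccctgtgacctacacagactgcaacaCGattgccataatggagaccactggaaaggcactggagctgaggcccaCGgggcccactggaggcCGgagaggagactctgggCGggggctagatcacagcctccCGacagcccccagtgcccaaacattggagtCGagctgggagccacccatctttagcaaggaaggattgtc
Hoxd13: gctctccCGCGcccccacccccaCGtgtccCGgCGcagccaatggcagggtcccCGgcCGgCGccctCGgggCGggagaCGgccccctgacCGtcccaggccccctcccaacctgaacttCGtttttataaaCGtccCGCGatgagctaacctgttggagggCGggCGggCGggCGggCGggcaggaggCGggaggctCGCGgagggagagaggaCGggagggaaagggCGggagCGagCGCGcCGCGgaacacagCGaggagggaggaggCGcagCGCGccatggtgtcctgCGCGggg
The Hoxc4 window held 9 CG and the Hoxd13 window 37, and 45.8% and 5.58% of all 32851 promoter windows held as many or more. The windows of the 22 genes ranged from 4 to 45 CG with a median of 14.5, against a median of 7 over all windows. The letters CTTTGAT (a TCF/LEF word, read on both strands) were found in 1 of the 24 Hox windows, that of Hoxd8, and in 3.73% of all windows. The letters TTTATNG (a CDX word, both strands) were found in the windows of Hoxb8 and Hoxd4, and in 10.9% of all windows. Neither word was in the Hoxc4 or Hoxd13 window.

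Depth was 9784408 to 10908368 reads in SL2i libraries and 15802072 to 30145771 reads in the SL libraries of the same lines, so medium and depth go together, and 16521594 to 30008895 reads in SL LbNOX and SL vector libraries. Levels are CPM, reads per 1000000 of the TMM-scaled library total, and 1 read was worth 0.0326 to 0.106 CPM. All 10 ESC markers had reads in every group, with a summed 8675 to 9099 CPM in SL2i libraries and 3655 to 4055 CPM in the SL libraries of the 3 lines. Slc16a1 averaged 123 CPM in SL2i clone 1 and 78.6 CPM in SL2i clone 2, against 162 CPM in SL2i chr8A. It averaged 171 CPM in SL clone 1 and 93.5 CPM in SL clone 2, against 198 CPM in SL chr8A. The LbNOX transgene is no mouse gene and was not analysed here.

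Hox transcripts were scarce in SL and several times as abundant in SL2i, and the Hoxc cluster made most of the difference. The 39 genes summed to 44.1 to 48.2 CPM in the 6 SL2i libraries, against 7.88 to 12.3 CPM in the 9 SL libraries of the same lines. The lowest SL2i library thus stood above the highest SL library. In the LbNOX table, the sum was 8.63 to 9.68 CPM in SL LbNOX and 6.65 to 8.70 CPM in SL vector libraries. The Hoxc genes summed to 32.0 ± 0.715 CPM in SL2i clone 1, 32.8 ± 0.506 in SL2i clone 2 and 28.9 ± 0.095 in SL2i chr8A (SD, n = 2 each). In SL they summed to 2.51 ± 0.345 CPM in clone 1, 2.61 ± 0.512 in clone 2 and 2.15 ± 0.408 in chr8A (SD, n = 3 each). Hoxc genes took 70.3%, 69.7% and 61.8% of the Hox reads in SL2i clone 1, clone 2 and chr8A, against 22.1%, 24.8% and 25.3% in SL. The Hoxb genes summed to 5.37, 4.39 and 7.76 CPM on average in SL2i clone 1, clone 2 and chr8A, against 2.04, 1.73 and 1.73 in SL, and the Hoxa genes to 5.99, 7.51 and 5.61 CPM in SL2i, against 4.46, 3.88 and 2.90 in SL. The Hoxd sum was 2.16 ± 1.12 CPM in SL2i clone 1 against 2.33 ± 0.467 in SL clone 1, 2.33 ± 0.639 in SL2i clone 2 against 1.98 ± 0.381 in SL clone 2, and 4.44 ± 0.830 in SL2i chr8A against 1.77 ± 0.230 in SL chr8A. Between media, only the chr8A libraries were apart for Hoxd. In the LbNOX table, the Hoxd sum was 2.10 to 2.36 CPM in SL LbNOX and 1.15 to 1.74 CPM in SL vector libraries, without overlap. The Hoxa, Hoxb and Hoxc sums overlapped there, and cluster sums were not tested. In bulk libraries, more cells with a transcript and more transcript per cell cannot be told apart.

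**Figure D1:**
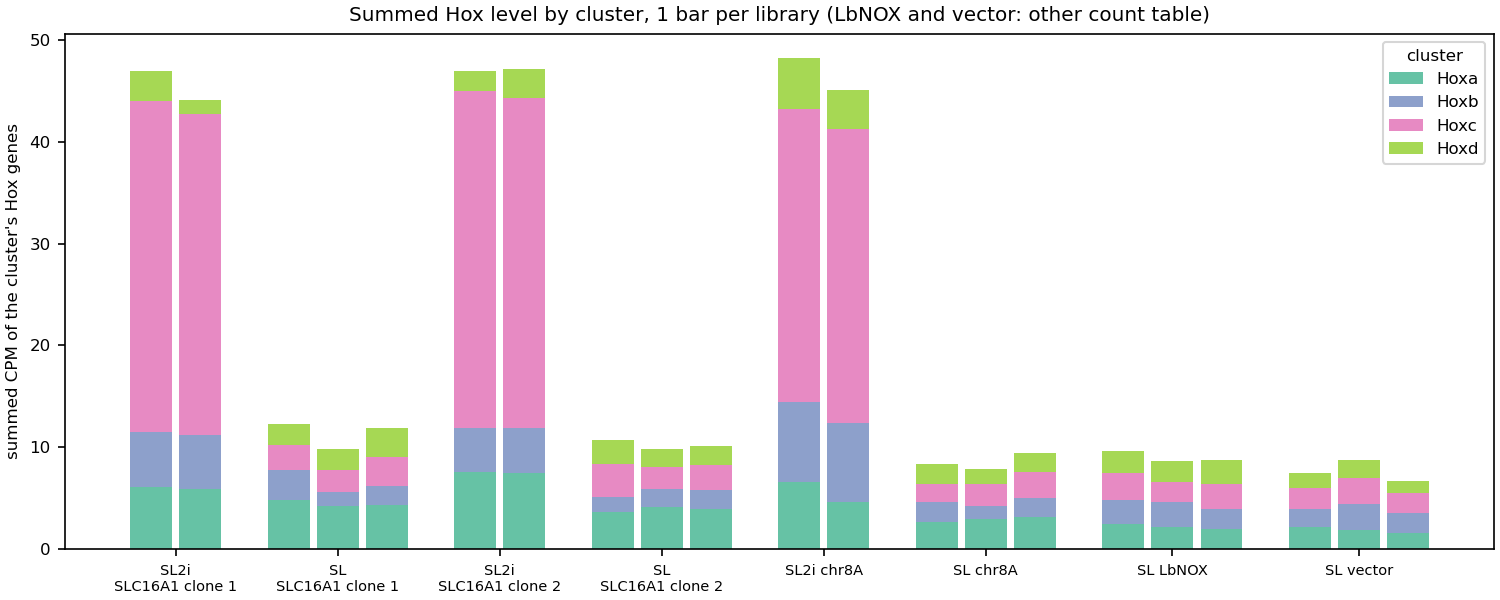
Summed CPM of the Hox genes of each cluster (y axis, linear), with 1 bar per library and the 4 clusters stacked. The 6 SL2i bars reach 44.1 to 48.2 CPM, mostly Hoxc, while the 9 SL bars of the same lines reach 7.88 to 12.3 CPM. LbNOX and vector come from the other count table.

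**Figure D2:**
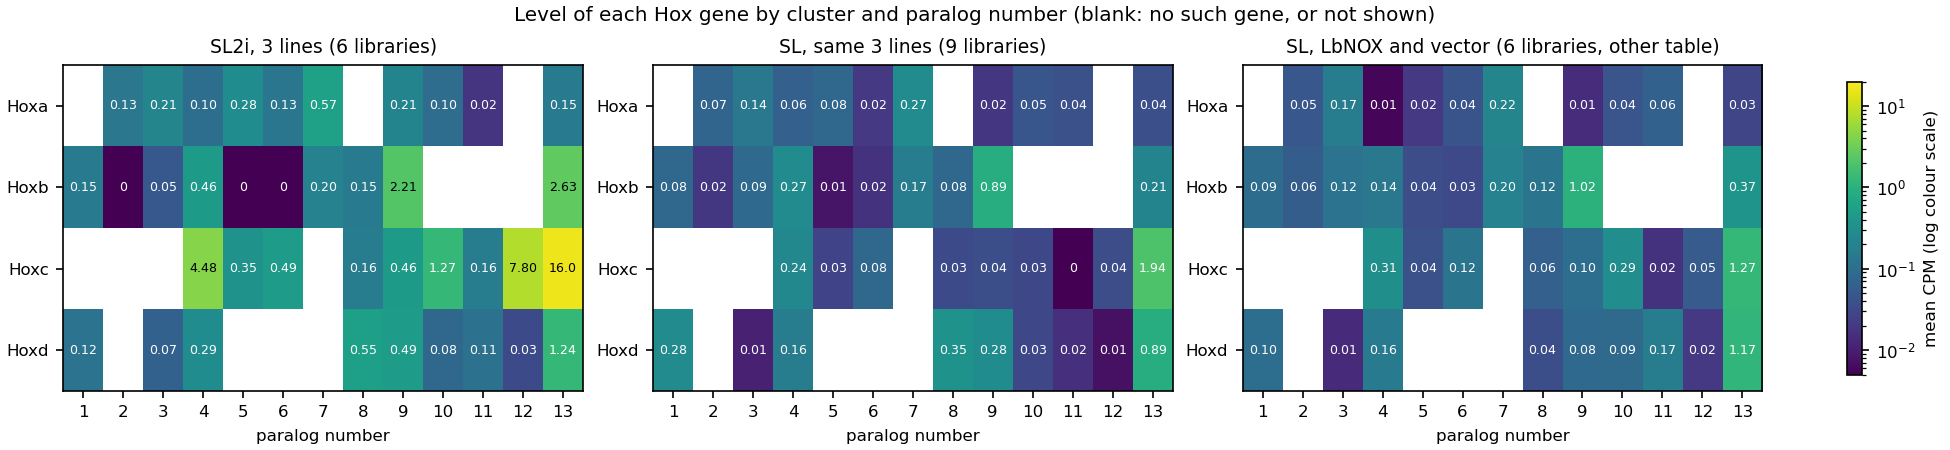
Mean CPM of the Hox genes shown, by cluster (rows) and paralog number (columns), in SL2i, in SL and in the LbNOX table, on a log colour scale with the value printed to 2 decimals (1 decimal for 16.0). A cell showing 0 is a gene without a read there, drawn at the lower end of the colours. Hoxc13, Hoxc12 and Hoxc4 are the brightest cells in SL2i, and Hoxc13 in both SL panels.

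Differences were tested in edgeR (quasi-likelihood F test). A gene was called at an adjusted p under 0.05 (Benjamini-Hochberg, over all genes tested in its table). Of the 39, 13 passed the filter on low counts in the first table and 26 did not. The filter looks across all 15 libraries: 5 members would pass on the 9 SL libraries alone and 8 on the 6 SL2i libraries alone. A member that passed through SL2i alone had to differ, so the counts that follow are a description. In SL2i against SL, 8 of 13 were higher in clone 1 (35.9% of all 17178 genes tested), 9 of 13 in clone 2 (35.8%) and 10 of 13 in chr8A (36.1%). None was lower in any of the 3 lines, where 37.1%, 37.2% and 36.8% of all genes tested were lower in clone 1, clone 2 and chr8A. Hoxb9, Hoxb13, Hoxc4, Hoxc6, Hoxc10, Hoxc12 and Hoxc13 were higher in all 3 lines, which is 7 of 13, beside 28.7% of all genes tested. With every gene of at least 1 read tested (30788 genes), 9 of the 39 were higher in clone 1 (18.8% of genes), 11 in clone 2 (19.1%) and 13 in chr8A (19.1%). None was lower in that fit, where 22.2%, 22.6% and 22.1% of genes were lower in clone 1, clone 2 and chr8A. Higher in all 3 lines were then 6 of the 39, the 7 above without Hoxc6, beside 14.1% of genes.

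The last genes of the Hoxc cluster, Hoxc13 and Hoxc12, had the highest Hox levels in SL2i. HOXC13 is known for its part in hair and nail formation, and HOXC12 is its neighbour of the group expressed nearest the tail. Hoxc13 held 17.0 and 16.7 CPM in SL2i clone 1 against 2.06, 1.83 and 2.30 in SL clone 1, and 17.6 and 17.1 CPM in SL2i clone 2 against 2.92, 1.73 and 1.76 in SL clone 2. In chr8A, Hoxc13 held 14.3 and 13.5 CPM in SL2i against 1.25, 1.51 and 2.10 in SL. Every SL2i library stood far above every SL library. Hoxc13 rose by 3.02 ± 0.18 on the log2 scale in clone 1 (8.12-fold, adjusted p = 7.04e-30), 3.10 ± 0.17 in clone 2 (8.59-fold, 8.77e-33) and 3.09 ± 0.18 in chr8A (8.51-fold, 2.26e-30, edgeR, ± SE). The Hoxc13 rise differed from that in chr8A by -0.07 ± 0.26 in clone 1 (adjusted p = 0.915) and by 0.01 ± 0.28 in clone 2 (adjusted p = 0.993). Both differences are smaller than their SE, which does not show that the rises were equal.

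Hoxc12 was nearly silent in SL. It held 7.18 and 7.31 CPM in SL2i clone 1 (143 reads in all) against 2 reads in SL clone 1, and 8.22 and 7.78 CPM in SL2i clone 2 (164 reads) against 4 reads in SL clone 2. In chr8A it held 7.34 and 8.99 CPM in SL2i (167 reads) against 2 reads in SL. The SL libraries held 0.0529, 0 and 0.0575 CPM in clone 1, 0, 0.0326 and 0.0980 CPM in clone 2 and 0.0418, 0.0388 and 0 CPM in chr8A, so no SL library came near the lowest SL2i library. Because of the few SL reads, the size is given as a ratio of depth-scaled reads with an exact binomial 95% interval, which covers counting error only. The Hoxc12 ratio was 193 (52.5 to 1609) in clone 1, 155 (59.3 to 575) in clone 2 and 307 (83.8 to 2560) in chr8A. Reads from PCR without molecular identifiers are not independent molecules. The edgeR calls of Hoxc12 had adjusted p of 6.92e-28 in clone 1, 1.22e-31 in clone 2 and 1.91e-32 in chr8A. Per length, Hoxc12 averaged 8.11 CPM per kilobase of gene length (RPKM) over the SL2i libraries and Hoxc13 6.59, and Hoxb13 1.92 RPKM. Hoxc11, the next gene on, had 10 reads over the 6 SL2i libraries and none over the 9 SL libraries, and was too low to test.

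**Figure D3:**
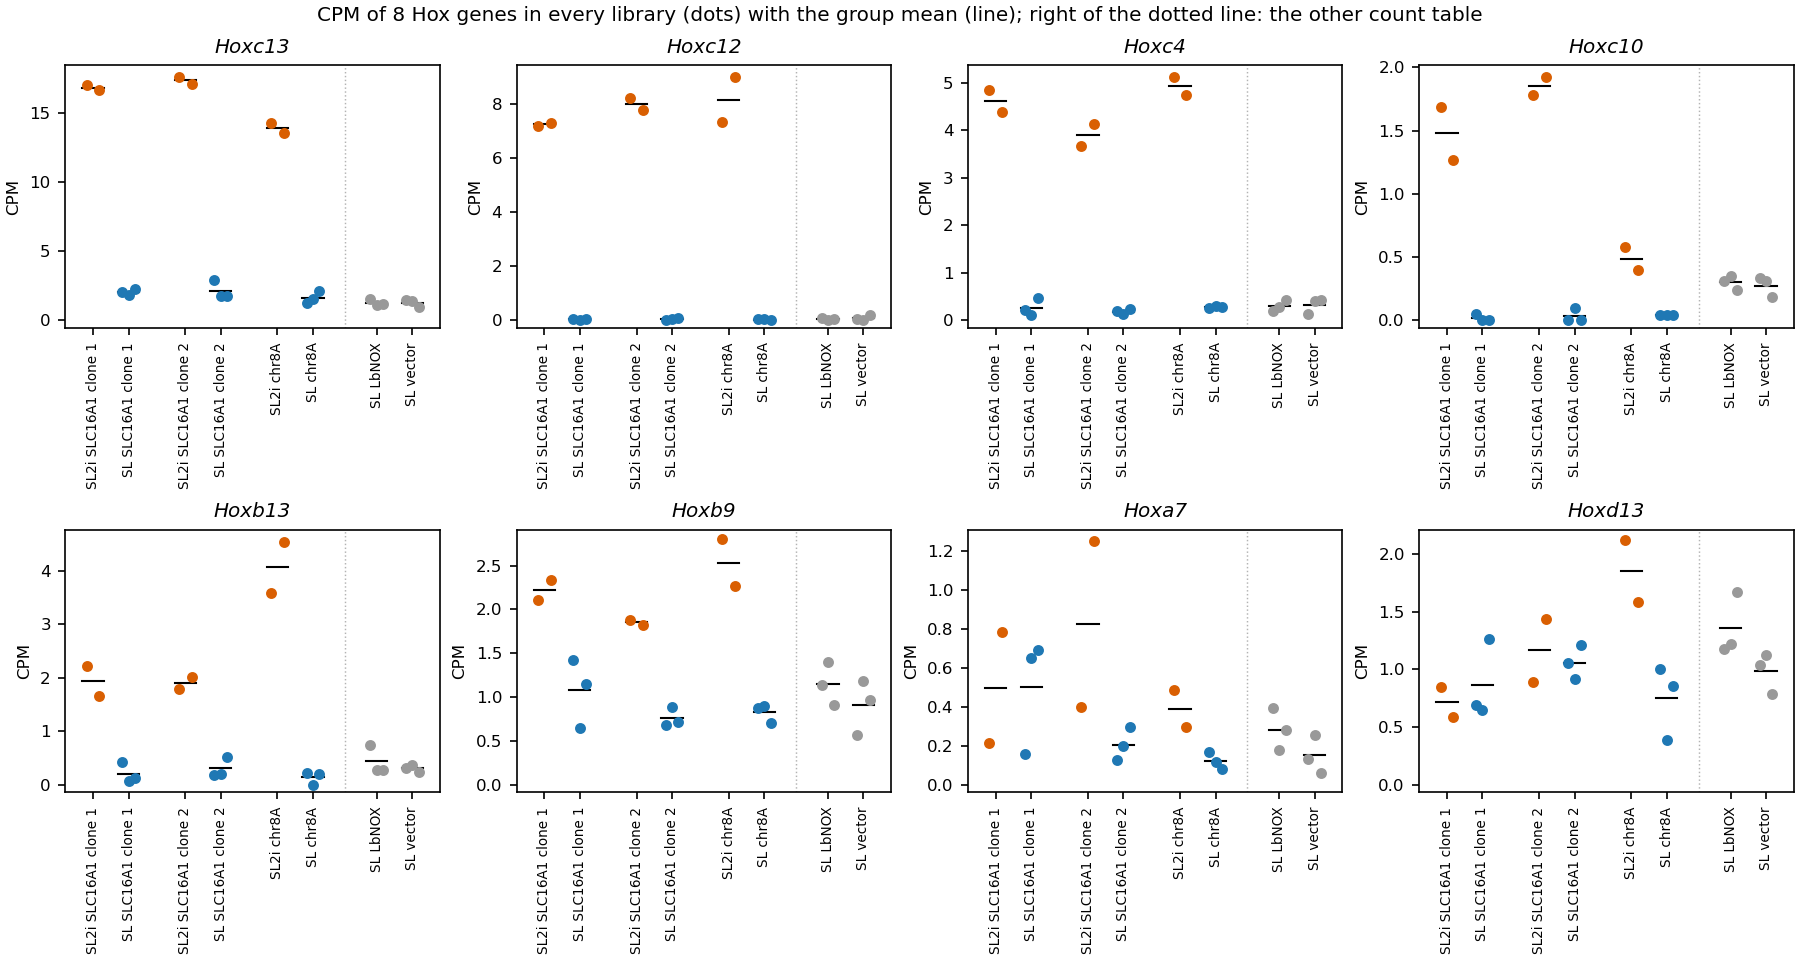
CPM of 8 Hox genes in every library (dots, linear axes that differ by gene) with the group mean (line), SL2i beside SL in each line, and LbNOX beside vector from the other table. For Hoxc13, Hoxc12, Hoxc4, Hoxc10, Hoxb13 and Hoxb9 each SL2i library stands above the SL libraries of its line, for Hoxa7 in clone 2 and chr8A, and for Hoxd13 only in chr8A.

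In the middle of the cluster, Hoxc10 and the less abundant Hoxc9 and Hoxc6 were also higher in SL2i. Hoxc10 serves limb and lumbar patterning. It held 1.69 and 1.27 CPM in SL2i clone 1, 1.78 and 1.92 in SL2i clone 2 and 0.580 and 0.395 in SL2i chr8A. In SL it held 0.0529, 0 and 0 CPM in clone 1 (1 read), 0, 0.0979 and 0 CPM in clone 2 (3 reads) and 0.0418, 0.0388 and 0.0389 CPM in chr8A (3 reads). SL2i and SL did not overlap in any line, and the SL2i chr8A libraries were lower than those of the clones. In the other count table, scaled separately, Hoxc10 held 0.181 to 0.349 CPM in SL LbNOX and SL vector libraries. Those levels lie above the SL libraries of the 3 lines and below the SL2i libraries. The near absence of Hoxc10 in SL is thus seen in the first table only. The Hoxc10 read ratio was 78.3 (13 to 3197) in clone 1, 47.8 (15.2 to 242) in clone 2 and 12.3 (3.16 to 69.4) in chr8A, and edgeR called it in each (adjusted p = 4.00e-09, 2.57e-11 and 7.22e-04). Of the 30-base words of Hoxc10, 7.39% also occur in another gene, Hoxc5. The difference of its medium effect from that in chr8A did not pass, at 2.44 ± 1.68 in clone 1 (adjusted p = 0.362) and 1.95 ± 1.50 in clone 2 (adjusted p = 0.430), fitted values that rest on 1 to 3 SL reads per line.

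Hoxc9, a thoracic gene, held 0.633 and 0.195 CPM in SL2i clone 1 against 0.0529, 0.118 and 0 in SL clone 1, 0.396 and 0.192 CPM in SL2i clone 2 against 0, 0.0326 and 0.131 in SL clone 2, and 0.483 and 0.889 CPM in SL2i chr8A against 0 in each SL chr8A library. No SL2i library fell into the SL range of its line. In reads, Hoxc9 had 8 in SL2i clone 1 against 3 in SL clone 1, 6 in SL2i clone 2 against 5 in SL clone 2, and 14 in SL2i chr8A against none in SL chr8A. Against a floor of 3 reads over the SL chr8A group, that is at least 17.2-fold higher in SL2i chr8A. Its read ratio in clone 1 was 7.20 (1.73 to 42.1). The call was made in chr8A (adjusted p = 1.63e-06) and clone 1 (0.0179) and not in clone 2 (0.0658, log2 2.08 ± 1.04, edgeR). In clone 1 the call ended without SL2i clone 1 replicate 1 (adjusted p = 0.388) and by DESeq2 (0.0615). Hoxc6, another trunk gene, held 0.422 and 0.293 CPM in SL2i clone 1 against 0.0529, 0.0591 and 0.0575 in SL clone 1, 0.693 and 0.480 CPM in SL2i clone 2 against 0.0620, 0.0979 and 0.261 in SL clone 2, and 0.773 and 0.296 CPM in SL2i chr8A against 0, 0.0776 and 0.0779 in SL chr8A. The groups did not overlap, but these levels rest on 7, 12 and 11 reads in SL2i clone 1, clone 2 and chr8A. It was called in clone 2 (1.89 ± 0.74, adjusted p = 0.0186) and chr8A (3.18 ± 0.90, 0.00104). In clone 1 the Hoxc6 ratio was 6.30 (1.44 to 37.7, adjusted p = 0.028). Each Hoxc6 call ended without replicate 1 of the SL2i libraries of its line (adjusted p = 0.168 in clone 1, 0.187 in clone 2 and 0.14 in chr8A). Those of the clones also ended by DESeq2 (0.0634 and 0.0787), without the filter (0.0624 and 0.0598), and without SL clone 1 replicate 1 (0.0528), SL2i clone 1 replicate 2 (0.0628) or SL clone 2 replicate 2 (0.061).

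Hoxc4, at the other end of the cluster, was also higher in SL2i in every line. It held 4.86 and 4.39 CPM in SL2i clone 1 against 0.212, 0.118 and 0.460 in SL clone 1, and 3.66 and 4.13 CPM in SL2i clone 2 against 0.186, 0.130 and 0.229 in SL clone 2. In chr8A, Hoxc4 held 5.12 and 4.74 CPM in SL2i against 0.251, 0.311 and 0.272 in SL. No SL library overlapped an SL2i library. Hoxc4 rose by 4.10 ± 0.40 in clone 1 (17.1-fold, adjusted p = 1.19e-16), 4.38 ± 0.40 in clone 2 (20.8-fold, 7.86e-18) and 4.11 ± 0.36 in chr8A (17.3-fold, 7.67e-19, log2 ± SE, edgeR). In RefSeq order the noncoding row Gm30528 overlaps Hoxc4, and reads of the 2 rows may not be told apart where they overlap. The strand of Gm30528 was not at hand, and whether counting used strand is not stated. Hoxc5, the Hox gene next to Hoxc4, and Hoxc8, which lies beyond Hoxc6, were too low for the test with the filter. Hoxc5 had 12 reads in SL2i clone 1 against none in SL clone 1 (at least 10.8-fold higher), 8 against 1 in clone 2 and 1 against 5 in chr8A. Hoxc8 had 10 reads over SL2i and 7 over SL.

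In the Hoxb cluster, the genes at the high-number end rose, and most of the others were barely detected. Hoxb13, a gene of the tail and prostate, held 2.22 and 1.66 CPM in SL2i clone 1 against 0.423, 0.0591 and 0.115 in SL clone 1, and 1.78 and 2.02 CPM in SL2i clone 2 against 0.186, 0.196 and 0.522 in SL clone 2. In chr8A, Hoxb13 held 3.58 and 4.54 CPM in SL2i against 0.209, 0 and 0.195 in SL. SL2i and SL libraries did not overlap in any line, and SL2i chr8A libraries were the highest. Hoxb13 rose by 3.19 ± 0.55 in clone 1 (9.10-fold, adjusted p = 2.41e-07), 2.55 ± 0.48 in clone 2 (5.84-fold, 1.73e-06) and 4.86 ± 0.48 in chr8A (29.1-fold, 5.00e-16, log2 ± SE, edgeR). The rise in clone 2 was smaller than that in chr8A by -2.31 ± 0.74 (adjusted p = 0.0182, 1 of 13 members, beside 16.9% of all genes tested). The same difference for clone 1 was -1.67 ± 0.85 (adjusted p = 0.180), and none of the 13 members passed there, beside 17% of all genes tested, with 2 at an unadjusted p under 0.05 (Hoxc9 and Hoxd13). For clone 2, the Hoxb13 difference lost its call in turn without SL clone 2 replicate 3 (-1.59, adjusted p = 0.240), SL chr8A replicate 2 (-1.73, 0.0906), SL2i clone 2 replicate 1 (0.0532) and SL2i chr8A replicate 2 (0.074).

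Hoxb9, a thoracic gene like Hoxc9, held 2.11 and 2.34 CPM in SL2i clone 1 against 1.43, 0.650 and 1.15 in SL clone 1, and 1.88 and 1.82 CPM in SL2i clone 2 against 0.682, 0.881 and 0.718 in SL clone 2. In chr8A it held 2.80 and 2.27 CPM in SL2i against 0.877, 0.893 and 0.701 in SL. The groups did not overlap in any line, though the gap was narrower than for Hoxb13. Hoxb9 rose by 1.03 ± 0.37 in clone 1 (2.05-fold, adjusted p = 0.00881), 1.26 ± 0.38 in clone 2 (2.39-fold, 0.00214) and 1.62 ± 0.35 in chr8A (3.07-fold, 2.66e-05, log2 ± SE, edgeR). The clone 1 call ended without SL clone 1 replicate 2 (adjusted p = 0.0632) or SL2i clone 1 replicate 2 (0.0767), and that in clone 2 at equal depth (0.0536). Hoxb4 passed the filter and was not called, at 1.41 ± 0.68 in clone 1 and 0.65 ± 0.64 in chr8A, and in clone 2 it had 2 reads in SL2i against 15 in SL, a ratio of 0.503 (0.0558 to 2.16). Hoxb2, Hoxb5 and Hoxb6 had no read in any SL2i library and 4, 2 and 3 reads over the 9 SL libraries.

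In the Hoxa cluster, Hoxa7, a trunk gene, held 0.211 and 0.780 CPM in SL2i clone 1 against 0.159, 0.650 and 0.690 in SL clone 1, and 0.396 and 1.25 CPM in SL2i clone 2 against 0.124, 0.196 and 0.294 in SL clone 2. In chr8A it held 0.483 and 0.296 CPM in SL2i against 0.167, 0.116 and 0.0779 in SL. Libraries overlapped in clone 1 and not in the other two lines. Hoxa7 was called in clone 2 (1.89 ± 0.64, adjusted p = 0.00640), and not in clone 1 (0.04 ± 0.68, 0.963) or chr8A (1.65 ± 0.85, 0.0738, log2 ± SE, edgeR). The clone 2 call ended without SL2i clone 2 replicate 2 (0.84, adjusted p = 0.496).

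In the Hoxd cluster no gene passed the test between media in all 3 lines. Hoxd13, a gene of digits and genital tubercle, held 0.844 and 0.585 CPM in SL2i clone 1 against 0.688, 0.650 and 1.26 in SL clone 1, and 0.891 and 1.44 CPM in SL2i clone 2 against 1.05, 0.913 and 1.21 in SL clone 2. In chr8A, Hoxd13 held 2.13 and 1.58 CPM in SL2i against 1.00, 0.388 and 0.856 in SL. Only chr8A libraries were apart. Hoxd13 rose by 1.31 ± 0.40 in chr8A (2.48-fold, adjusted p = 0.00253), a call that ended without SL2i chr8A replicate 1 (0.0798). Its changes in clone 1, -0.28 ± 0.51 (adjusted p = 0.631), and clone 2, 0.14 ± 0.43 (0.773), did not pass. The Hoxd13 medium effect in the clones minus that in chr8A was -1.59 ± 0.64 for clone 1 (adjusted p = 0.0748) and -1.17 ± 0.58 for clone 2 (0.166). Hoxd8 held 0.633 and 0.195 CPM in SL2i clone 1 against 0.159, 0.591 and 0.690 in SL clone 1, 0.495 and 0.480 in SL2i clone 2 against 0.682, 0.0652 and 0.131 in SL clone 2, and 0.676 and 0.790 in SL2i chr8A against 0.292, 0.233 and 0.350 in SL chr8A. The Hoxd8 groups overlapped in both clones, and none of its changes was called (-0.21 ± 0.73, 1.05 ± 0.75 and 1.31 ± 0.65 in clone 1, clone 2 and chr8A, edgeR).

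**Figure D4:**
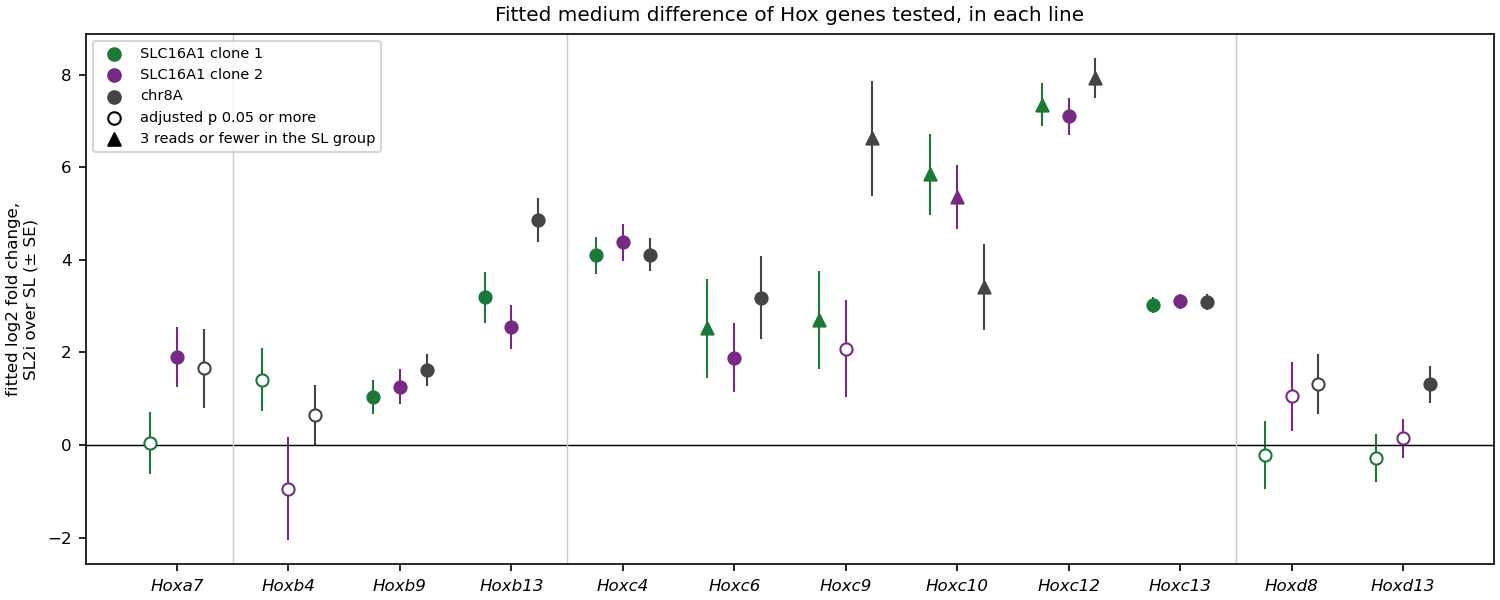
Fitted log2 fold change of SL2i over SL, with its SE, for Hox genes that passed the filter, by cluster and paralog number, in clone 1, clone 2 and chr8A. Filled symbols have an adjusted p under 0.05, and triangles mark an SL group of 3 reads or fewer, whose fitted size is no bound. Hoxc13 lies at 3.02 to 3.10 and Hoxc4 at 4.10 to 4.38 in the 3 lines, while Hoxb13 spreads over 2.55 to 4.86.

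The remaining members had few reads in either medium. Over the 6 SL2i and the 9 SL libraries, Hoxa2 had 8 and 16 reads, Hoxa3 13 and 27, Hoxa4 6 and 12, Hoxa5 17 and 16, Hoxa6 8 and 3, and Hoxa9 13 and 5. Hoxa10 had 6 and 9, Hoxa11 1 and 9, and Hoxa13 9 and 9. Since the SL2i libraries are shallower, equal read counts stand for a higher SL2i level. Hoxb1 had 9 and 19 reads in SL2i and SL, Hoxb3 3 and 15, Hoxb7 12 and 33, and Hoxb8 9 and 18. In the Hoxd cluster, Hoxd3 had 4 and 2, Hoxd4 17 and 33, Hoxd9 30 and 57, Hoxd10 5 and 6, Hoxd11 7 and 4, and Hoxd12 2 and 2. Sequence shared with other genes makes Hoxd3 (61.2% of its 30-base words) and Hoxd4 (49.3%) uncertain. Hoxa11, Hoxb2, Hoxb3, Hoxb5, Hoxb6 and Hoxd1 had a lower mean CPM in SL2i than in SL. Of these, Hoxd1 had the most reads, with 7 in SL2i and 52 in SL. Its depth-scaled ratio was 0.337 (0.0650 to 1.11) in clone 1, 0.686 (0.0739 to 3.14) in clone 2 and 0.433 (0.0485 to 1.82) in chr8A, with each 95% interval including 1, so a fall was not detectable at this depth. In the fit of all genes with a read, calls outside the 13 were Hoxc5 and Hoxc11 in clone 1 (adjusted p = 1.43e-04 and 0.0147), Hoxa9, Hoxc5 and Hoxc8 in clone 2 (0.0263, 0.00324 and 0.0228) and Hoxa5, Hoxa6 and Hoxd9 in chr8A (0.0253, 0.0237 and 0.0305, edgeR). Only Hoxc5 recurred in a second line.

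The long noncoding RNAs Gm53 and Gm51876, between Hoxb13 and Hoxb9, were among the transcripts most raised in SL2i in the clusters. RefSeq places 30 noncoding genes of the tables inside the clusters, of which 9 had no read, the 6 microRNA rows among them. The highest was Gm53, between Hoxb13 and Hoxb9. It held 16.6 and 19.7 CPM in SL2i clone 1 against 0.582, 0.709 and 0.919 in SL clone 1, 17.7 and 18.1 CPM in SL2i clone 2 against 0.496, 0.718 and 0.490 in SL clone 2, and 17.9 and 15.7 CPM in SL2i chr8A against 0.376, 0.427 and 0.584 in SL chr8A. SL2i libraries were thus far above SL in all lines, and Gm53 was more abundant by CPM than Hoxb13 and Hoxb9 beside it. Gm53 rose by 4.62 ± 0.21 in clone 1 (adjusted p = 4.68e-39), 4.93 ± 0.20 in clone 2 (1.00e-42) and 5.16 ± 0.21 in chr8A (1.55e-42, log2 ± SE, edgeR). Its neighbour Gm51876, named after its values were seen, rose by 4.46 ± 0.28, 4.87 ± 0.28 and 5.16 ± 0.28 in clone 1, clone 2 and chr8A (adjusted p = 5.54e-28, 3.92e-31 and 1.32e-32). Gm30134, in the same interval, rose by 1.55 ± 0.58, 1.71 ± 0.63 and 3.06 ± 0.50. Outside it, Mira in the Hoxa cluster and Gm30528 at Hoxc4 were called higher in clone 2 and chr8A and not in clone 1. Mira had 11, 14 and 12 reads in SL2i clone 1, clone 2 and chr8A against 10, 6 and 4 in SL. Gm30528 had 7, 16 and 16 against 6, 0 and 3. Hotairm1, in the Hoxa cluster, was not called in any line (-0.33 ± 0.61, 0.86 ± 0.53 and -1.02 ± 0.73 in clone 1, clone 2 and chr8A). Hotair, between Hoxc12 and Hoxc11, had 2, 5 and 4 reads in SL2i clone 1, clone 2 and chr8A, against 0, 1 and 3 in SL.

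Genes outside the clusters did not all move with their Hox neighbours. Calcoco1, the protein-coding gene next to Hoxc13, did not pass the test in chr8A or clone 2 and was slightly higher in SL2i in clone 1: 52.2 CPM on average in SL2i chr8A against 52.9 in SL chr8A (-0.02 ± 0.06, adjusted p = 0.803, edgeR), with -0.03 ± 0.06 in clone 2 and 0.16 ± 0.07 in clone 1 (0.026). Smug1, a DNA glycosylase gene beyond Hoxc4, rose by 0.94 in clone 1, 1.08 in clone 2 and 0.58 in chr8A. At the Hoxb13 end, the tubulin ligase gene Ttll6 rose by 1.89, 1.72 and 0.97, and the autophagy receptor gene Calcoco2 by 5.28, 5.26 and 4.52 on the log2 scale in clone 1, clone 2 and chr8A (adjusted p of Calcoco2 4.28e-95, 1.73e-98 and 8.55e-93). Calcoco2 averaged 279 CPM in SL2i chr8A against 12.1 in SL chr8A. Of the 14 flanking genes tested, 7, 6 and 6 were higher and 3, 5 and 4 lower in SL2i clone 1, clone 2 and chr8A, with a median near 0 (0.09, -0.02 and 0.07).

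HOX proteins bind DNA with cofactors of the Pbx, Meis and Pknox families, and these moved in both directions. Of 9 cofactor genes tested, 3, 3 and 2 rose and 5, 5 and 5 fell in SL2i clone 1, clone 2 and chr8A. The smallest adjusted p in chr8A belonged to Meis2, with 64.9 and 63.6 CPM in SL2i clone 1 against 1.16, 1.18 and 0.977 in SL clone 1 and 40.9 and 44.2 CPM in SL2i chr8A against 1.59, 1.32 and 1.13 in SL chr8A. Meis2 rose by 5.85, 5.71 and 4.98 on the log2 scale in clone 1, clone 2 and chr8A (adjusted p = 3.67e-65, 1.65e-68 and 2.25e-60). Pknox2 rose as well (2.59, 2.58 and 2.34). Pbx3 fell by 1.67, 1.88 and 1.62 in clone 1, clone 2 and chr8A.

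Among 12 tested genes of the caudal and posterior axis, 5, 6 and 4 rose and 4, 4 and 3 fell in clone 1, clone 2 and chr8A. Cdx1, a caudal factor known to regulate Hox genes, held 33.9 and 35.3 CPM in SL2i clone 1 against 0.899, 0.709 and 0.862 in SL clone 1, and 37.3 and 32.4 CPM in SL2i chr8A against 0.793, 0.738 and 0.662 in SL chr8A. It rose by 5.38, 5.79 and 5.56 in clone 1, clone 2 and chr8A (adjusted p = 7.32e-53, 1.33e-56 and 1.21e-56). Sp5, a Wnt target, rose by 1.56, 1.97 and 3.30. Nkx1-2, a gene of the caudal epiblast, had 266 reads in SL2i chr8A against 2 in SL chr8A, a ratio of 490 (134 to 4065). Greb1 fell by 2.72, 3.31 and 3.89. Of 16 retinoic acid genes, 2, 2 and 3 rose and 10, 10 and 10 fell in clone 1, clone 2 and chr8A, with medians of -0.66, -0.87 and -0.74 beside -0.01 to 0.00 over all genes tested. The receptor gene Rarg fell by 0.84, 1.07 and 1.16 and the binding protein gene Crabp2 by 4.20, 4.37 and 3.49.

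Genes of the Polycomb and Trithorax complexes, which hold Hox clusters off and on, moved in both directions, with more rises than falls. Of 34 Polycomb genes, 21, 20 and 20 rose and 11, 11 and 11 fell in clone 1, clone 2 and chr8A. The repressive complex 2 genes Epop (1.55, 1.50 and 1.51), Suz12 (1.12, 1.11 and 1.08) and Mtf2 (0.97, 0.98 and 1.05) rose, and the complex 1 gene Phc1 fell by 1.10, 1.21 and 1.33. Of 21 Trithorax genes, 15, 11 and 12 rose and 3, 5 and 3 fell in clone 1, clone 2 and chr8A, led by Wdr5 (1.03, 0.93 and 1.11) and Rbbp5 (1.09, 0.98 and 0.97). Of 20 other homeobox genes tested, 7, 6 and 7 rose and 9, 10 and 8 fell in clone 1, clone 2 and chr8A, and Otx2, a forebrain and epiblast gene, changed by -3.07, -3.62 and -2.68. These lists share the fits above and are read beside the 35.8% to 37.2% of all genes called in each direction.

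Fibroblast, neural and endoderm marker sums were lower in SL2i than in SL, and the mesoderm sum was higher in SL2i in the clones. The 12 embryonic fibroblast markers, which would mark feeder cells, summed to 28.2 to 33.6 CPM in SL2i and 79.7 to 103 CPM in SL libraries of the 3 lines, and Col3a1, Postn and Dcn had no read in SL2i. In each line 8 of the 9 tested fell and 1 rose. The 6 neural markers summed to 55.8 to 90.6 CPM in SL2i and 159 to 166 in SL, and the 6 endoderm markers to 4.34 to 9.41 in SL2i and 19.8 to 25.0 in SL. The 6 mesoderm and streak markers summed to 16.9 to 18.2 CPM in SL2i clone 1, 15.8 to 16.6 in SL2i clone 2 and 8.70 to 12.2 in SL2i chr8A, against 8.51 to 10.9 in SL, with 2 of the 6 without a read in each group. Their part in the Hox result was not tested.

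Few Hox genes passed the test between the SLC16A1 clones and chr8A, where their reads leave wide errors: the median SE of a Hox log2 fold change was 0.47 to 0.59, against 0.08 to 0.14 over all genes tested. In SL, clone 1 had 1 of 13 members called, beside 16.6% of all genes tested, and clone 2 had none (edgeR, with 3 at an unadjusted p under 0.05), beside 26.9%. That member was Hoxa7, at 0.159, 0.650 and 0.690 CPM in SL clone 1 against 0.167, 0.116 and 0.0779 in SL chr8A, with 1 SL clone 1 library inside the SL chr8A range. It was higher by 1.98 ± 0.64 (adjusted p = 0.0193), a call that ended without SL clone 1 replicate 2 (0.114), SL clone 1 replicate 3 (0.134), SL chr8A replicate 2 (0.0508) or SL chr8A replicate 3 (0.0789). With the 1 CPM filter, at equal depth and in a fit of the compared groups alone, Hoxa7 was not among the genes tested.

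In SL2i, clone 1 had 1 of 13 called, beside 22.4% of all genes tested, and clone 2 had 1 of 13, beside 20.6%. Hoxd13 was lower in clone 1, at 0.844 and 0.585 CPM in SL2i clone 1 against 2.13 and 1.58 in SL2i chr8A, with no overlap (-1.38 ± 0.52, adjusted p = 0.0444). In clone 2 it was -0.66 ± 0.47 (0.357). Hoxc10 was higher in clone 2, at 1.78 and 1.92 CPM against 0.580 and 0.395 in SL2i chr8A (1.91 ± 0.62, adjusted p = 0.0170), and clone 1, at 1.69 and 1.27 CPM, gave 1.58 ± 0.64 (0.0664). Hoxb13 was lower than in chr8A in both clones without passing (-1.07 ± 0.42, 0.0560, and -1.09 ± 0.42, 0.0519). The Hoxd13 and Hoxc10 calls both ended when any single library of the groups compared was left out, with adjusted p of 0.0574 to 0.272 for Hoxd13 and 0.0758 to 0.172 for Hoxc10. Hoxc13 and Hoxc12 differed from chr8A by 0.32 or less in SL2i in both clones, with no call. The 4 comparisons of clones with chr8A share the chr8A libraries of their medium. Between the clones, none of 13 was called in SL (beside 4.4% of all genes tested) or in SL2i (beside 0.157%), each with 1 at an unadjusted p under 0.05, Hoxa7 in SL and Hoxb4 in SL2i (edgeR).

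No difference in Hox genes between SL LbNOX and SL vector passed the test. Of the 39 members, 5 passed the filter here, and none was called, nor had any an unadjusted p under 0.05, beside 0.0372% of all 16119 genes tested. DESeq2 also called none of them. Hoxc13 held 1.57, 1.12 and 1.15 CPM in SL LbNOX against 1.43, 1.38 and 0.967 in SL vector libraries, which overlap (-0.01 ± 0.27). Hoxd13 was the furthest apart, at 1.18, 1.22 and 1.67 CPM in SL LbNOX against 1.03, 1.13 and 0.786 in SL vector, without overlap (0.45 ± 0.28, unadjusted p = 0.134). Hoxb9 differed by 0.39 ± 0.34 and Hoxc4 by 0.02 ± 0.54. Hoxc12 had 7 reads over these 6 libraries and Hoxc10 44.

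**Figure D5:**
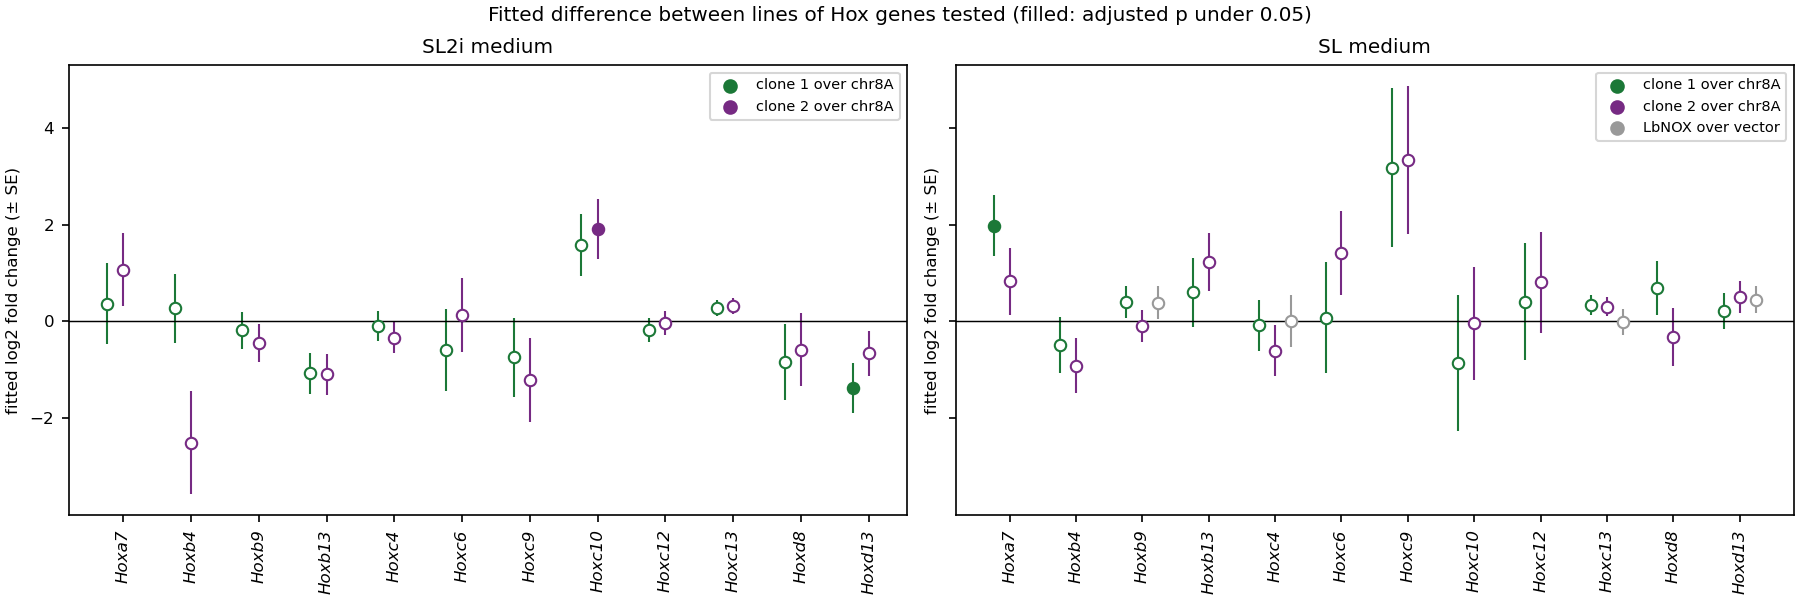
Fitted log2 fold change, with its SE, of clone 1 and clone 2 over chr8A in SL2i (left) and SL (right), and of LbNOX over vector (right), for Hox genes that passed the filter. Only Hoxd13 in SL2i clone 1, Hoxc10 in SL2i clone 2 and Hoxa7 in SL clone 1 are filled, for an adjusted p under 0.05. Bars are long where reads are few, as for Hoxc9 in SL.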

How the data were processed

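Raw counts per gene were deposited by the authors as 2 tables, with a gene ID, symbol and length per row, made with DRAGEN 3.10 and featureCounts (Subread) on GRCm39 per the submitters' processing notes. Whether counting used strand is not stated there. Libraries were polyA-selected and stranded, per the labels' protocols. Rows without a symbol held 0.321% and 0.725% of reads in the LbNOX and the SLC16A1 table and kept their gene ID.

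Each table was filtered (filterByExpr), scaled (TMM) and fitted separately in edgeR 4.0.16 (R 4.3.3) with 1 mean per group and a robust quasi-likelihood F test, and all 15 libraries of the larger table shared 1 fit. The SE is the log2 fold change over the root of F. Each table was read whole, with no column left unused. The fits were tested on simulated data. The Hox genes and gene lists were chosen with earlier results of these data known. Alternatives were RLE factors, other filters, DESeq2 1.42.0, a replicate block, fits of the compared groups alone, equal depth and leaving out each library. Gene order and promoters come from RefSeq on GRCm38.p6, and no gene coordinate is given on GRCm39. The text gives every library for members called in a comparison and for the 2 most abundant of each cluster, and from each gene list up to 4 genes with the smallest adjusted p in the chr8A medium comparison, plus neighbours of a member. Gm51876, Gm30134, Mira and Gm30528 were named after their values were seen. Results of 2 genes are not reported here.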

Additional observations from a re-analysis of the deposited data

Results flagged for a closer look

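The medium effect on Hoxb13 (SL2i against SL) differed between clone 2 and chr8A by a test of the difference itself. In clone 2 it was smaller than in chr8A by -2.31 ± 0.74 on the log2 scale (edgeR, adjusted p = 0.0182). Hoxb13 was 1 of 13 members called there, beside 16.9% of all genes tested. The same difference for clone 1 was not called. Hoxb13 averaged 1.90 CPM in SL2i clone 2 and 0.301 CPM in SL clone 2, against 4.06 CPM in SL2i chr8A and 0.134 CPM in SL chr8A. It rose in both of the 2 SL2i libraries of each line. The call ended when any one of 4 libraries was left out: the difference was -1.59 without SL clone 2 replicate 3 (adjusted p = 0.24), -1.73 without SL chr8A replicate 2 (0.0906), -2.12 without SL2i chr8A replicate 2 (0.074) and -2.22 without SL2i clone 2 replicate 1 (0.0532). At equal depth the difference was -4.08 ± 1.27 (0.0249), and DESeq2 gave Hoxb13 no adjusted p for it.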

How the results depend on the processing

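The counts of Hox genes higher in SL2i than in SL stayed within 1.5 times under every alternative: leaving out 1 library gave 7 to 9 in clone 1, 8 to 10 in clone 2 and 7 to 11 in chr8A. The counts between lines rest on single genes. For clone 1 against chr8A in SL (1 called), 0 were called with 1 CPM in 3 libraries required, by DESeq2, in a fit of the compared groups alone and at equal depth, none of which gave Hoxa7 an adjusted p, and 0 to 1 without a library. For clone 1 against chr8A in SL2i (1 called), 0 were called without a filter, by DESeq2 and at equal depth, 3 with the 1 CPM filter and with the groups alone, and 0 to 2 without a library. For clone 2 against chr8A in SL2i (1 called), 0 were called by DESeq2, which gave Hoxc10 no adjusted p, and at equal depth, 2 without a filter, with the 1 CPM filter and with the groups alone, and 0 to 2 without a library. The difference of medium effects had 1 call for clone 1 without a filter (0 in the reported fit), 0 to 1 without a library, and for clone 2 0 by DESeq2, which gave Hoxb13 no adjusted p, and 0 to 2 without a library. The comparisons of the clones with each other, clone 2 with chr8A in SL and LbNOX with vector gave 0 throughout. The causes were not tested. With a replicate block, 2 were called in each of the SL2i comparisons of clone 1 and clone 2 with chr8A. Deviations of same-numbered libraries from their group means had r of -0.041 to 0.054 over 33 pairs in the larger table. In the LbNOX table r was -0.159 to 0.127 over 3 pairs. In a group of 2 libraries the deviations mirror each other, and counting noise draws r to low values. These values therefore cannot show whether the numbers are a pairing. Gm30134, a noncoding row between Hoxb13 and Hoxb9, ranged from -0.29 to 2.52 for SL2i against SL in clone 2 without 1 library (1.71 with all), turning without SL2i clone 2 replicate 1 (adjusted p = 0.842). Of the single Hox results under the alternatives, 604 kept direction and call, and 39 kept direction and lost the call. The SL2i rises of Hoxb13, Hoxc4, Hoxc10, Hoxc12 and Hoxc13 kept both in all 3 lines wherever they were tested. On the SL libraries alone, Hoxb13, Hoxc4, Hoxc10 and Hoxc12 would not pass the filter, while on the SL2i libraries alone they would. Their kept calls in fits with a filter are thus a description and lend no support. Depth limits the low members: 1 read was 0.0960 to 0.106 CPM in SL2i libraries.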
